A study of Mus musculus with 12 samples.

Results

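Expression of 10 genes that glucocorticoid hormone is known to induce was followed across adult mouse cortex of 3 Tet1 genotypes: Cebpd, Tsc22d3, Zbtb16, Fkbp5, Sgk1, Ddit4, Nfkbia, Errfi1, Pdk4 and Cdkn1a. They were picked by gene symbol, each stands on 1 row, and they make up 10 of the 21769 rows of the deposited count table. Their choice was made with knowledge that genes of this response stood higher in KO than in WT cortex, so values for KO against WT are given as a description, and the count of these genes called there is not read as a test. The study measured poly(A)-selected RNA from whole adult cortex in 4 KO, 4 HxD and 4 WT libraries. The labels name KO, HxD and WT as genotypes and Tet1 as the gene. TET1 is an enzyme that oxidises methylated cytosine in DNA. The study's title contrasts catalytic with other roles of TET1, and the labels do not spell out HxD, which in enzymes of this kind denotes a motif that binds iron. They give no allele, strain, sex, or time of tissue collection, and do not state whether each library is a separate animal, so p-values measure only the spread between these libraries, which may be technical.

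Glucocorticoids cross the cell membrane, bind the glucocorticoid receptor held by a chaperone complex in the cytoplasm, and carry it to the nucleus, where it binds DNA at glucocorticoid response elements. In rodents the main hormone is corticosterone, whose blood level follows the time of day and climbs sharply with stress or handling. The genes it induces include transcription regulators, brakes on the receptor itself, and inhibitors of growth and inflammatory signalling, and they are expressed in glia and blood vessel cells as well as in neurons.

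Estimated counts summed to 5791642 to 9535409 per library in KO, 7767787 to 10347432 in HxD and 8310783 to 10915574 in WT. Tet1 itself was listed at 0 in all 4 KO libraries, at 1, 0, 63 and 67 counts in HxD 1 to 4, and at 0 in all 4 WT libraries, so this gene cannot check the knockout label. A listed 0 is thus no proof of absent expression. Levels below are CPM, counts scaled to a common library total with TMM factors that correct for composition, and every member passed the filter on low counts, its lowest value being 40 counts (Fkbp5 in HxD 2). Changes are log2 fold changes from 1 edgeR quasi-likelihood fit over 11693 genes and all 12 libraries, with p-values adjusted over all of them by the Benjamini-Hochberg method and called below 0.05.

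The 10 genes fell into 2 sets of 5 in KO cortex. For Tsc22d3, Sgk1, Cebpd, Ddit4 and Nfkbia, every KO library stood above every WT library, and also above every HxD library. For Fkbp5, Zbtb16, Pdk4, Cdkn1a and Errfi1, the KO libraries overlapped those of both other genotypes. No member had KO libraries wholly below those of another genotype, and none of the 10 had HxD libraries wholly above or below WT. Over all tested genes, KO lay wholly above WT for 3.25% and below for 3.95%, KO above HxD for 3.97% and below for 3.62%, and HxD above WT for 1.76% and below for 1.72%. The share against WT is printed beside the count only as background, since that comparison guided the choice of genes, and the comparison with HxD uses the same KO libraries.

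**Figure D1:**
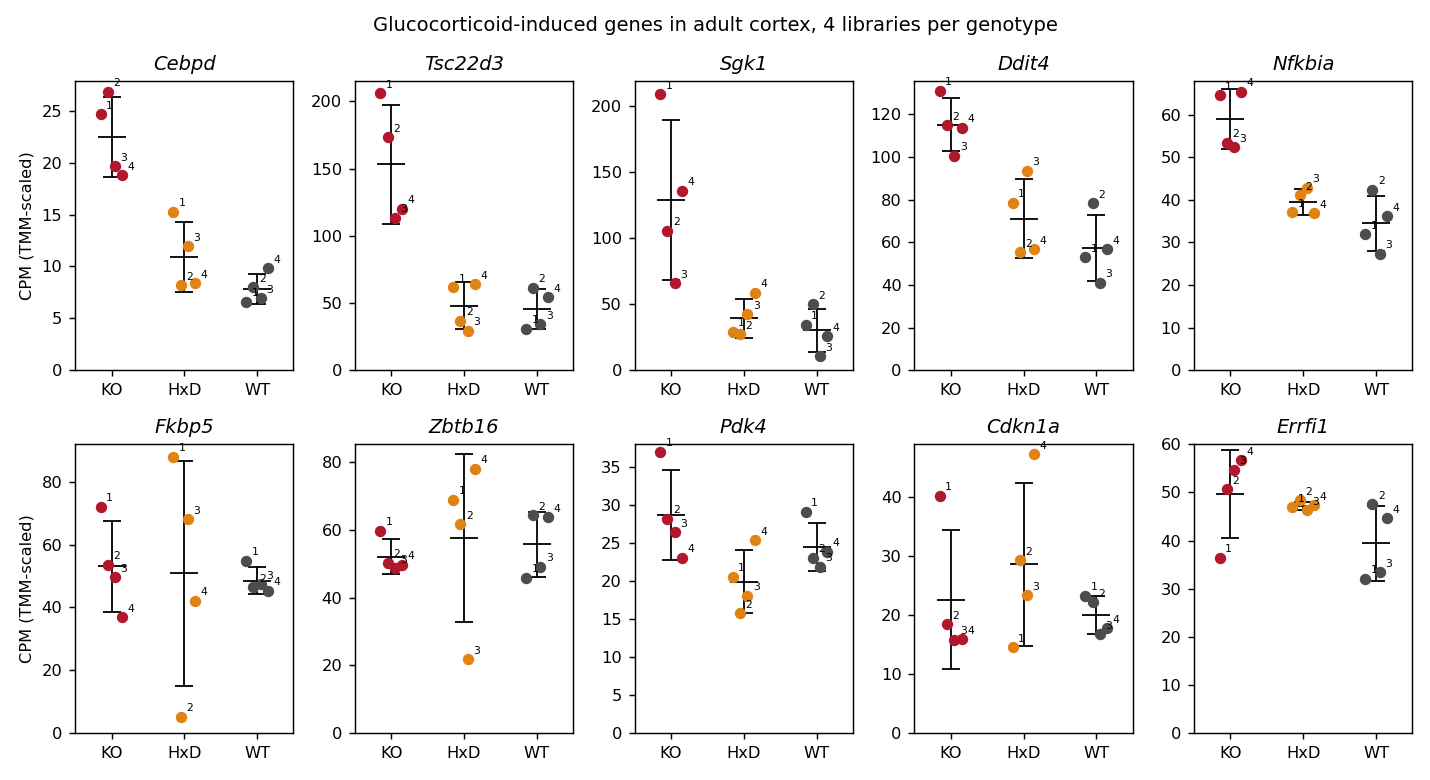
Level of each gene in CPM in every library (points, numbered by replicate), with the mean and SD (bars, n = 4 per genotype). In the upper row the 4 KO points lie above all HxD and WT points, and in the lower row they overlap with them.

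Among the regulators of transcription, Tsc22d3 encodes a leucine zipper protein, also called GILZ, that mediates anti-inflammatory effects of the hormone. It stood at 206, 173, 114 and 120.1 CPM in KO 1 to 4, at 61.9, 36.8, 29.4 and 64.2 CPM in HxD 1 to 4, and at 31, 61.4, 34.4 and 54.4 CPM in WT 1 to 4. The lowest KO library thus lay well clear of the highest library of either other genotype, while HxD and WT covered the same range. The mean was 153 ± 44.3 CPM in KO, 48.1 ± 17.6 in HxD and 45.3 ± 14.9 in WT (SD, n = 4 each), and the log2 fold change in KO was 1.76 ± 0.33 (SE) against WT and 1.67 ± 0.33 against HxD. Tsc22d3 rose in KO against HxD by edgeR (adjusted p = 0.0397, higher in 4 of 4 libraries), the only member called there. The call was lost in 10 of 12 fits that left out 1 library, and it rests on the KO libraries that guided the choice of genes.

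Cebpd is a transcription factor of the C/EBP family that cytokines induce too. Its level was 24.7, 26.9, 19.7 and 18.8 CPM in KO 1 to 4, 15.3, 8.19, 11.9 and 8.39 CPM in HxD 1 to 4, and 6.62, 8, 6.93 and 9.82 CPM in WT 1 to 4. HxD 1 came nearest to the KO libraries. The log2 fold change was 1.52 ± 0.24 in KO against WT and 1.04 ± 0.24 in KO against HxD (edgeR adjusted p = 0.0998), and 0.48 ± 0.24 in HxD against WT. Zbtb16, a zinc finger transcriptional repressor also called PLZF, did not follow them: it stood at 59.8, 50.2, 48.7 and 49.7 CPM in KO, at 68.9, 61.7, 21.8 and 78 CPM in HxD, and at 45.9, 64.4, 49.1 and 63.7 CPM in WT. The narrow KO range lay inside the HxD range, and HxD 3 was the lowest library of all. The log2 fold change of Zbtb16 was -0.10 ± 0.31 in KO against WT and -0.15 ± 0.31 in KO against HxD.

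Fkbp5 encodes a co-chaperone that lowers the hormone affinity of the glucocorticoid receptor and so acts as feedback on it. It held 72.1, 53.6, 49.5 and 36.9 CPM in KO 1 to 4, 88, 5.2, 68.1 and 42 CPM in HxD 1 to 4, and 54.9, 46.4, 47.4 and 45.3 CPM in WT 1 to 4. The genotypes overlapped, and HxD 2 stood far below every other library. The highest library was 1.95-fold above the lowest in KO, 16.9-fold in HxD and 1.21-fold in WT. Its log2 fold changes of 0.13 ± 0.58 in KO against WT and 0.06 ± 0.58 in KO against HxD carried the widest error of the 10 genes, and the second was -0.32 without HxD 2.

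Sgk1 encodes a serum- and glucocorticoid-regulated kinase that controls ion channels and transporters. Its level was 209, 106, 65.9 and 136 CPM in KO 1 to 4, 29.1, 27.2, 42.5 and 58.6 CPM in HxD 1 to 4, and 34.3, 49.9, 10.7 and 25.9 CPM in WT 1 to 4. KO 1 was the highest library and WT 3 the lowest, and the gap between the lowest KO and the highest HxD library was small. This was the largest log2 fold change among the members in KO against WT, 2.10 ± 0.48, and it was 1.76 without KO 1. In KO against HxD it was 1.71 ± 0.48, which did not pass (edgeR adjusted p = 0.212).

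Promoter windows were searched because several members stood higher together in KO. RefSeq windows of assembly GRCm38.p6, from 250 bases before to 50 after a gene start, were found for 8 members (17 windows), and Cebpd and Zbtb16 had none in the table. The palindromic glucocorticoid response element was taken as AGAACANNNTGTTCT, which reads the same on both strands. An exact match was present in 1 window of Sgk1 and in 3 of 32851 windows in all (0.00913%). With at most 2 mismatches in the 12 defined letters, matches were found in 2 of the 17 windows, both of Sgk1, and in 1.84% of all windows. A single arm of it, AGAACA or its reverse complement TGTTCT, was present in 4 of the 17 windows (3 of Sgk1, 1 of Tsc22d3), against 19.0% of all windows, and each exact palindrome also counts as a match of its arms. Sgk1 had more of the 17 windows than any other member. Counted by gene, the palindrome with at most 2 mismatches was present in 1 of 8 members, against 2.10% of all genes. The arm was present in 2 of 8, against 21.3%. The windows with the exact match and with the arm in Tsc22d3 are shown 5′ to 3′, with the palindrome in capitals in Sgk1 and the arm in capitals in Tsc22d3. The Sgk1 window lies at chr10:21993640-21993939 on the plus strand, and its match covers bases -189 to -175 from that gene start. A further arm, left in lower case, begins at base -242 of that window. The Tsc22d3 window lies at chrX:140600473-140600772 on the minus strand, and its arm begins at base -185.
Sgk1: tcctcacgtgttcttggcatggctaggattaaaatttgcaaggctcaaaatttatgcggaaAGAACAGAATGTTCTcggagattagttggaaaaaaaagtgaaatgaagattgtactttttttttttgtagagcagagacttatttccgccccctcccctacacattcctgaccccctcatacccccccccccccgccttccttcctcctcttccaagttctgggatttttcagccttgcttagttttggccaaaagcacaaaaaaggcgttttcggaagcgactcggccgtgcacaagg
Tsc22d3: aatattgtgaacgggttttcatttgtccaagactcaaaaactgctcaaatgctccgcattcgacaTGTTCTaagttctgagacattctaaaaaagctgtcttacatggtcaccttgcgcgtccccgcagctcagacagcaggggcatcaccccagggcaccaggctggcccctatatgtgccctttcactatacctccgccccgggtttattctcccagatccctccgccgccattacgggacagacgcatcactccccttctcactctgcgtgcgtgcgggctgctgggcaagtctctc
A match is a run of letters, and its use by the receptor in this tissue was not measured. Exact palindromes were not present in the windows of Tsc22d3, Ddit4 or Nfkbia, which also stood higher in KO.

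Ddit4, also called REDD1, restrains the growth kinase complex mTORC1. It stood at 131, 115, 101 and 114 CPM in KO 1 to 4, at 78.5, 55.2, 93.6 and 56.8 CPM in HxD 1 to 4, and at 53, 78.2, 41.1 and 56.6 CPM in WT 1 to 4. The KO libraries were close to each other, and HxD 3 came just below the lowest of them. The log2 fold change was 1.01 ± 0.22 in KO against WT and 0.70 ± 0.22 in KO against HxD (edgeR adjusted p = 0.253). Ddit4 lies on chromosome 10 as Tet1 does, with 41 protein-coding genes between them in the RefSeq table, and Sgk1 is on the same chromosome with 228 between. The part of this shared location in their levels was not tested.

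Nfkbia encodes the inhibitor that holds NF-kappaB in the cytoplasm. It had 64.6, 53.4, 52.3 and 65.4 CPM in KO, 37.1, 41.1, 42.9 and 36.9 CPM in HxD, and 31.9, 42.4, 27.3 and 36.2 CPM in WT. The highest library was 1.25-fold above the lowest in KO, 1.16-fold in HxD and 1.55-fold in WT. This member had the smallest error of the 10. The log2 fold change was 0.77 ± 0.14 in KO against WT and 0.58 ± 0.14 in KO against HxD (edgeR adjusted p = 0.121). Errfi1, a feedback inhibitor of the EGF receptor, did not part the genotypes. It had 36.5, 50.6, 54.8 and 56.7 CPM in KO, 46.9, 48.4, 46.4 and 47.3 CPM in HxD, and 32.1, 47.5, 33.4 and 44.6 CPM in WT. Its HxD libraries were nearly equal, and KO 1, the top library for most members, was the lowest KO library here. The log2 fold change of Errfi1 was 0.33 ± 0.16 in KO against WT and 0.07 ± 0.16 in KO against HxD.

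Pdk4, a kinase that shuts down pyruvate dehydrogenase and so spares glucose, was measured at 37, 28.2, 26.4 and 23.1 CPM in KO, at 20.6, 15.7, 18 and 25.4 CPM in HxD, and at 29.1, 23, 21.9 and 23.9 CPM in WT. Only HxD 4 overlapped with KO, and the log2 fold change was 0.52 ± 0.19 in KO against HxD (edgeR adjusted p = 0.329), 0.23 ± 0.19 in KO against WT and -0.30 ± 0.19 in HxD against WT. Cdkn1a, the cyclin-dependent kinase inhibitor p21, which p53 also induces, had 40.2, 18.4, 15.8 and 15.9 CPM in KO, 14.5, 29.2, 23.3 and 47.2 CPM in HxD, and 23.3, 22.2, 16.8 and 17.7 CPM in WT. KO 1 stood apart from the other KO libraries, and the HxD libraries were spread out, with HxD 4 the highest. The log2 fold change of Cdkn1a in KO against WT was 0.18 ± 0.39, and -0.26 without KO 1.

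**Figure D2:**
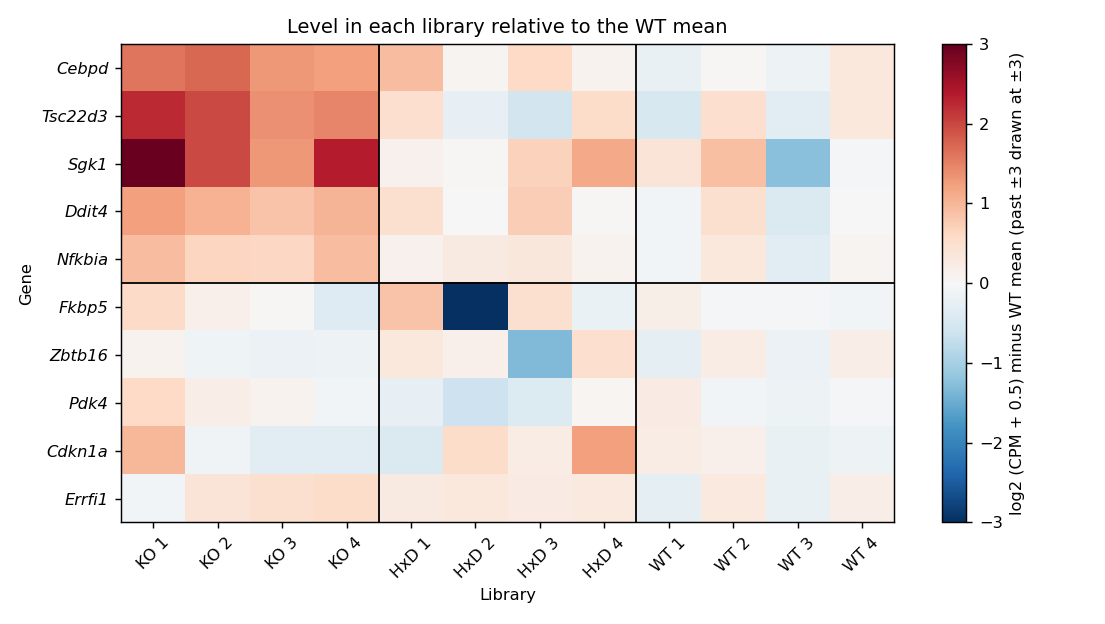
Level of each gene (rows) in each library (columns) as log2 of CPM plus 0.5 minus the WT mean of that gene. The 5 upper genes are above the WT mean in all 4 KO libraries, and Fkbp5 in HxD 2, at 5.2 CPM, is the lowest cell. Values past 3 in either direction are drawn at 3.

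In KO against WT, the fold changes of the 10 genes ranged from -0.10 to 2.10 on the log2 scale, with a median of 0.55 against 0.01 over all tested genes. Of the 10, 9 were above 0, as were 50.9% of all tested genes. The edgeR fit over all genes placed 1 of 10 members, Cebpd, past its threshold as higher, where 0.0428% of all tested genes were higher (0.111% lower, 0.154% either way), and nothing is read from that count because this comparison guided the choice. Cebpd kept that place in 2 of 12 fits that left out 1 library (without HxD 1 and without WT 4). It lost it without the filter on low counts, with only the 8 libraries compared and under limma-voom. The members' median was 0.59 without KO 1 and between 0.47 and 0.65 with any other single library left out.

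In HxD against WT, edgeR called 0 of the 10 genes, and the count at an unadjusted p below 0.05 was also 0, where 4.05% of all tested genes had one. DESeq2 and limma-voom called 0 as well. Of all tested genes, edgeR called 0.898%, with 0.487% higher and 0.411% lower, DESeq2 called 1.48% and limma-voom 0.701%. The log2 fold changes ranged from -0.30 for Pdk4 to 0.52 ± 0.39 for Cdkn1a, and each had an adjusted p of 0.999. The members' median was 0.23, with 9 of 10 above 0, against 0.01 and 51.3% over all tested genes. Standard errors ran from 0.14 for Nfkbia to 0.58 for Fkbp5, so these values leave room for changes in HxD that were not detectable with 4 libraries. In both these comparisons the WT libraries are shared, so their values are set side by side only: Tsc22d3 was at 1.76 ± 0.33 in KO and 0.09 ± 0.32 in HxD, and Sgk1 at 2.10 ± 0.48 and 0.38 ± 0.47, each against WT.

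In KO against HxD, the members' median log2 fold change was 0.55, against 0.00 over all tested genes, and 8 of 10 were above 0, against 50.2%. This comparison reuses the KO libraries on which the genes were chosen, so it is not independent of that choice. Tsc22d3 alone was called by edgeR, 1 of 10 where 0.445% of all tested genes were called higher (0.573% lower, 1.02% either way). DESeq2 called Tsc22d3, Cebpd, Sgk1 and Nfkbia higher, where it called 1.38% of all genes higher. Limma-voom called Tsc22d3, where it called 0.308% higher. The edgeR call of Tsc22d3 was kept in 2 of the 12 fits that left out 1 library each (without WT 1 and without KO 3), and in the other 10 its adjusted p was 0.0503 to 0.127, with a log2 fold change of 1.49 to 1.84 throughout the 12 fits. It was also lost in a fit on the 8 libraries compared (adjusted p = 0.0829) and without the filter on low counts (adjusted p = 0.0502).

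**Figure D3:**
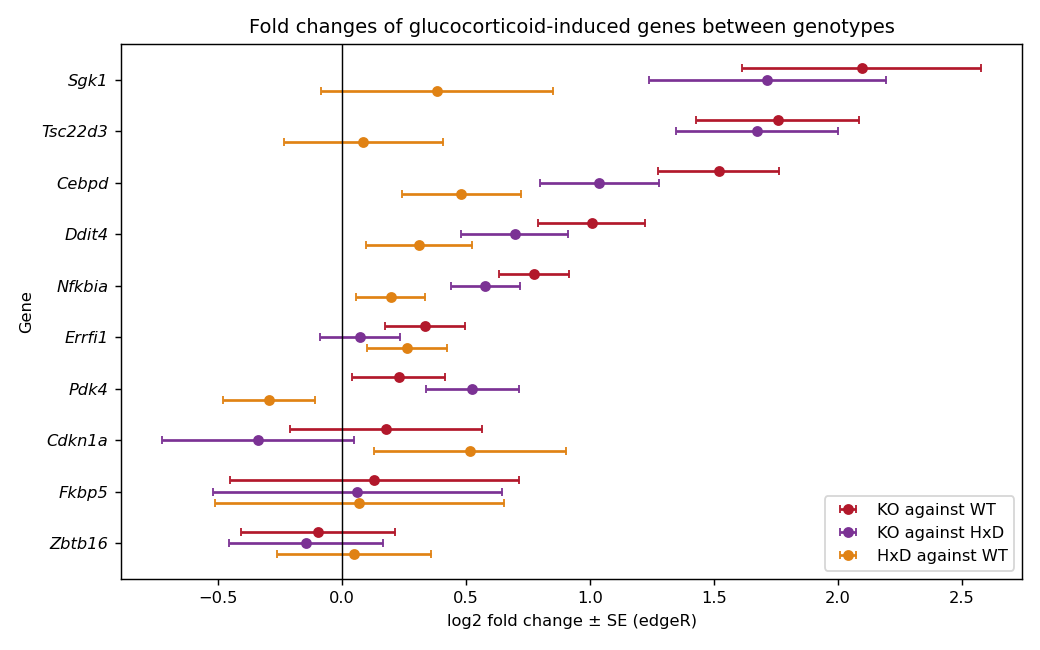
Log2 fold change with its SE for each gene (rows) in KO against WT, KO against HxD and HxD against WT, from 1 edgeR fit. Both comparisons of KO are well above 0 for the top 5 genes, and for Fkbp5 and Zbtb16 all 3 comparisons lie within 1 SE of 0.

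Per kilobase of the longest GENCODE M21 transcript, Ddit4 and Nfkbia were the most abundant members in WT cortex, at 32.6 ± 8.81 and 21.8 ± 4.05 CPM per kb (SD, n = 4). They were followed by Tsc22d3 at 15.8, Errfi1 at 12.9, Fkbp5 at 12.6, Zbtb16 at 10.9, Sgk1 at 9.75, Cdkn1a at 9.61 and Pdk4 at 7.02 CPM per kb. Cebpd came last at 2.09 ± 0.39 CPM per kb. Ranges of neighbours in this order overlapped between libraries except for Pdk4 and Cebpd. In KO cortex Tsc22d3 stood at 53.3 ± 15.4 and Sgk1 at 41.8 ± 19.6 CPM per kb, beside Ddit4 at 65.5 ± 7.12 and Nfkbia at 37.3 ± 4.45, so these 4 headed the order there.

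The members did not vary as 1 block between libraries of a genotype. KO 1 held the highest KO value for 7 of the 10 genes, and KO 3 the lowest for 6. In WT, WT 2 was highest for 6 and WT 3 lowest for 5, and in HxD, HxD 4 was highest for 5 and HxD 2 lowest for 5. Each library was summarised by the members' median log2 CPM after subtracting every gene's own 12-library mean. This summary was 0.44 ± 0.21 in KO, -0.14 ± 0.25 in HxD and -0.31 ± 0.24 in WT (SD, n = 4), and no KO library fell below 0.29. Over the 12 libraries with genotype means removed, the 10 pairs among Tsc22d3, Sgk1, Cebpd, Ddit4 and Nfkbia had a median Pearson correlation of 0.46, and all 10 were above 0. The 10 pairs among the other 5 members had a median of -0.01, from -0.58 for Pdk4 with Errfi1 to 0.64 for Pdk4 with Cdkn1a. The 25 pairs of 1 gene from each set lay between, with a median of 0.15 and 17 above 0. The closest pair after this step was Tsc22d3 with Zbtb16, at 0.74. All pairs come from the same 12 libraries, and no test was made of these values.

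WT and HxD libraries 1 and 3 were set apart from libraries 2 and 4, because earlier results of these data had split WT and HxD that way. The labels name no batch. The difference in mean log2 CPM of Tsc22d3 in KO was 2.17 against WT 1 and 3, and 1.35 against WT 2 and 4. Sgk1 gave 2.59 and 1.71, Cebpd 1.65 and 1.28, Ddit4 1.29 and 0.78, and Nfkbia 0.98 and 0.58 in the same order. All 5 genes stood above WT in either set. This follows from how they were grouped, with every KO library above every WT library, and is no check of the split. Within libraries 1 and 3, the 5 genes were 0.38 to 0.95 higher in HxD than in WT (2 libraries each). Within libraries 2 and 4 the difference lay between -0.25 and 0.15 (2 libraries each). Over all 10 members, the difference ran from -0.38 to 0.95 in libraries 1 and 3, with 7 above 0. In libraries 2 and 4 it ran from -1.57 to 0.89, with 4 above 0. With the set as a term, 0 of 10 members were called by edgeR in HxD against WT.

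Receptor genes could not be followed. Nr3c1, the glucocorticoid receptor, was listed at 0 in 3 KO libraries, at 13 counts in KO 4 and at 0 in all HxD and WT libraries. Nr3c2, the mineralocorticoid receptor, was listed at 0 in all 12. The enzyme that regenerates active corticosterone inside cells, Hsd11b1, stood at 55.5, 71.2, 53.5 and 56.4 CPM in KO, at 28.9, 47.3, 8.43 and 32.4 CPM in HxD, and at 22.8, 21.3, 23.6 and 51.6 CPM in WT. Its KO libraries lay above all others, with log2 fold changes of 1.02 ± 0.45 against HxD and 0.99 ± 0.45 against WT that did not pass edgeR (adjusted p = 0.426 and 0.525). The peptide Crh, which starts the hormone cascade in the hypothalamus and is made by interneurons in cortex, was at 13.1 ± 1.88 CPM in KO, 10.5 ± 4.89 in HxD and 10.2 ± 1.96 in WT (SD, n = 4).

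Of 16 genes for receptors, chaperones, coregulators and hormone handling, 13 were tested and edgeR called 0 in each of the 3 comparisons. At an unadjusted p below 0.05 there were 2 in KO against WT, 0 in HxD against WT and 2 in KO against HxD. In KO against HxD, DESeq2 called 1, as higher, and limma-voom 0, where they called 1.38% and 0.308% of all genes higher. Over all tested genes the shares at that unadjusted p were 9.48% in KO against WT, 4.05% in HxD against WT and 11.6% in KO against HxD. The chaperone Hsp90ab1 was at 1848 ± 172 CPM in KO, 2096 ± 196 in HxD and 2055 ± 120 in WT. Stip1, which links it to Hsp70, was at 235 ± 26.2 CPM in KO, 257 ± 19.6 in HxD and 249 ± 21.96 in WT. The coactivator Ncoa1 was at 209 ± 17.1 CPM in KO, 206 ± 23.8 in HxD and 226 ± 4.801 in WT. The corepressor Ncor1 was at 281 ± 27.4 CPM in KO, 307 ± 50.6 in HxD and 361 ± 41.8 in WT.

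A further 24 genes known to be induced by glucocorticoids gave 21 tested genes. In KO against WT 20 of the 21 were above 0 (50.9% of all tested genes), with a median log2 fold change of 0.44. This list too was chosen with the higher level of the response in KO known, so no test of it is given in that comparison. KO against HxD reuses the same KO libraries, so the counts for it below are not independent of that choice. In KO against HxD 16 were above 0 with a median of 0.41, and in HxD against WT 13 with a median of 0.03. Of all tested genes, 50.2% and 51.3% were above 0 there. At an unadjusted p below 0.05 there were 8 in KO against HxD and 1 in HxD against WT. Of all tested genes, 11.6% and 4.05% passed it. DESeq2 called 5, all higher, in KO against HxD, where it called 1.38% of all genes higher. It called 1 in HxD against WT, where 1.48% of all genes were called either way. Limma-voom called 0 in both, against 0.308% higher and 0.701% either way over all genes. EdgeR called 1 higher and 1 lower in turn, where it called 0.445% of all tested genes higher and 0.411% lower. The call of edgeR in both these comparisons was Dusp1, a MAP kinase phosphatase, at 104, 87.5, 108 and 61.7 CPM in KO and 27.6, 11.2, 15.8 and 33.8 CPM in WT, and listed at 0 in all 4 HxD libraries (adjusted p = 7.9e-05 for KO against HxD and 2.5e-04 for HxD against WT). These calls rest on listed zeros, limma-voom made neither, and the one in HxD against WT was lost with the library set as a term. No fold is given against libraries listed at 0. The 4 most abundant of these genes were not called. Glul, which makes glutamine in astrocytes, was at 3616 ± 319 CPM in KO, 2930 ± 461 in HxD and 3103 ± 340 in WT. Rhob, a small GTPase, was at 502 ± 53.8 CPM in KO, 497 ± 41.5 in HxD and 486 ± 46.6 in WT. Klf9, a transcription factor, was at 550 ± 42.6 CPM in KO, 413 ± 125 in HxD and 406 ± 97.1 in WT. Gpd1, a glycerol phosphate dehydrogenase, was at 172 ± 24.1 CPM in KO, 168 ± 49.4 in HxD and 165 ± 48.4 in WT.

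Among 19 paralogues of the members, 16 were tested and edgeR, DESeq2 and limma-voom each called 0 in all 3 comparisons, with 3, 1 and 5 at an unadjusted p below 0.05 in KO against WT, HxD against WT and KO against HxD (9.48%, 4.05% and 11.6% of all tested genes). Their median log2 fold change was 0.09 in KO against WT and 0.11 in KO against HxD. Tsc22d1, the relative of Tsc22d3, stood at 415 ± 57.5 CPM in KO, 418 ± 26.7 in HxD and 385 ± 32.2 in WT. Fkbp1a, the target of the drug FK506, was at 517 ± 54.1 CPM in KO, 665 ± 52.8 in HxD and 535 ± 88 in WT. Fkbp4, which escorts the receptor to the nucleus, was at 178 ± 53.2 CPM in KO, 156 ± 26.1 in HxD and 183 ± 21.98 in WT. Pdk2, the relative of Pdk4, was at 152 ± 12.6 CPM in KO, 149 ± 15.4 in HxD and 162 ± 4.39 in WT.

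**Figure D4:**
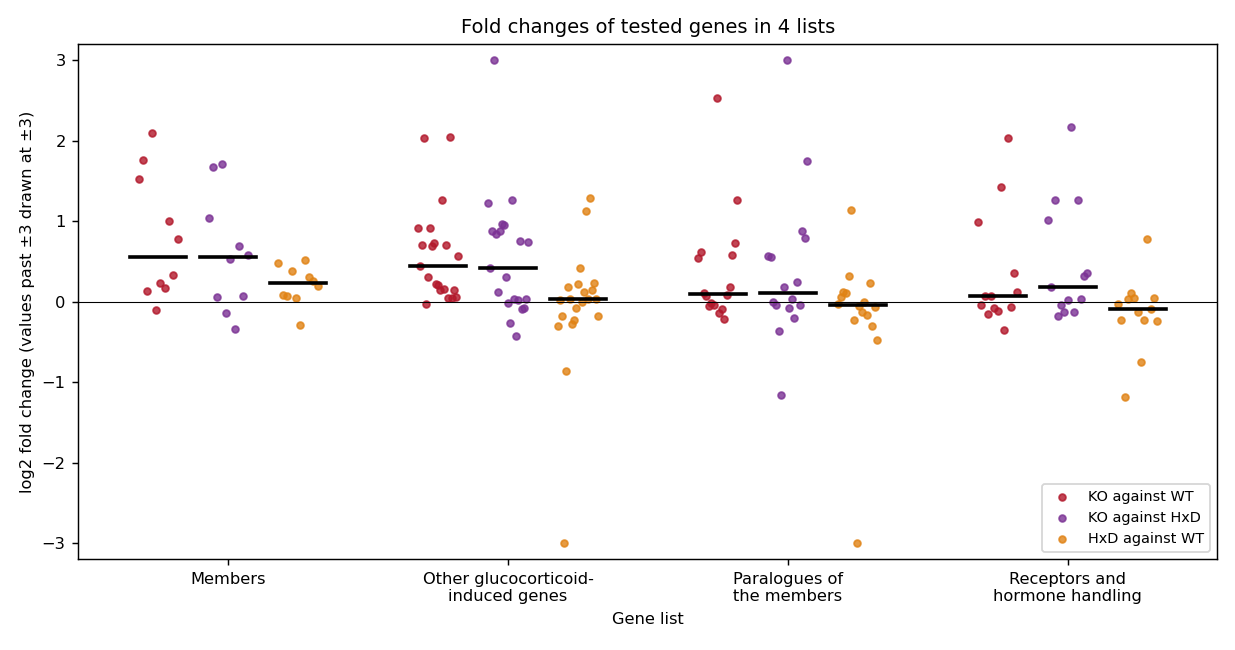
Log2 fold changes of tested genes (points) in 4 lists for KO against WT, KO against HxD and HxD against WT, with the median as a bar. In KO against WT the medians are 0.55 for the members and 0.44 for the other induced genes, and 0.09 and 0.07 for the paralogues and the receptor list.

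The 5 genes outside all lists whose profile over the 12 libraries was most like the median of the members were chosen by Pearson correlation. Tiparp, an ADP-ribosyltransferase induced by the aryl hydrocarbon receptor, reached 0.91 and stood at 61.5, 60.4, 45.4 and 39.6 CPM in KO, 25.2, 22.7, 36.5 and 31.2 CPM in HxD, and 21.1, 29.7, 16.9 and 21.5 CPM in WT. Fzd4, a receptor for Wnt and Norrin in blood vessels, reached 0.91 and stood at 43.7, 24.2, 22.8 and 27.2 CPM in KO, 21.9, 12.6, 20.6 and 20.9 CPM in HxD, and 16.5, 24.1, 17.6 and 20.2 CPM in WT. Tob2, an antiproliferative protein, reached 0.89, Myl9, a myosin light chain of smooth muscle, 0.88, and Polr3e, a subunit of RNA polymerase III, 0.87. Since they were picked out of all tested genes for this likeness, their correlations carry no test.

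Marker genes of cells and states were read beside these results. Markers of neurons summed to 8532 to 11041 CPM in KO, 7001 to 11273 in HxD and 7950 to 12107 in WT libraries, and all 7 had counts. Astrocyte markers (7 of 7 with counts) summed to 3713 to 4074 CPM in KO, 3063 to 3913 in HxD and 3029 to 3874 in WT. Oligodendrocyte markers (7 of 7) summed to 3279 to 3863 CPM in KO, 1423 to 4234 in HxD and 2002 to 4797 in WT. Endothelial markers (6 of 7, with Pecam1 at 0 throughout) summed to 86.4 to 132 CPM in KO, 108 to 148 in HxD and 118 to 151 in WT, and mural cell markers (6 of 6) to 304 to 400.1 CPM in KO, 252 to 309 in HxD and 261 to 351 in WT. Oligodendrocyte precursor markers (2 of 2) summed to 32.1 to 117 CPM in KO, 17.7 to 166 in HxD and 109 to 130.2 in WT. Markers of striatum, a neighbouring region, (8 of 8) summed to 269 to 408 CPM in KO, 235 to 1082 in HxD and 359 to 636 in WT. Choroid plexus markers (3 of 3) summed to 0.962 to 7.21 CPM in KO, 1.85 to 249.6 in HxD and 2.19 to 30.6 in WT. Blood markers (5 of 5) summed to 348 to 457 CPM in KO, 297 to 437 in HxD and 258 to 562 in WT. Microglial markers (6 of 7, with Csf1r at 0 throughout) summed to 233 to 277 CPM in KO, 246 to 300.3 in HxD and 261 to 300.4 in WT. Immediate early genes (9 of 9), which neuronal activity and handling induce, summed to 1262 to 2454 CPM in KO, 508 to 2824 in HxD and 504 to 1456 in WT. Their sum averaged 1978 ± 521 CPM in KO, 1634 ± 1090 in HxD and 1032 ± 471 in WT (SD, n = 4). In KO against WT, 8 of the 9 had a log2 fold change above 0, as had 8 in HxD against WT. In KO against HxD there were 6. Over all tested genes the shares were 50.9%, 51.3% and 50.2% in that order. In the same order, 0, 7 and 0 of 7 tested striatal markers were above 0, and 5, 0 and 7 of 7 for oligodendrocytes. Astrocytes gave 6, 4 and 5 of 7, neurons 4, 4 and 4 of 7, and mural cells 5, 2 and 5 of 5. Microglia gave 1, 1 and 2 of 5, endothelium 2, 2 and 3 of 5, and blood 0, 0 and 2 of 5. Oligodendrocyte precursors gave 0, 0 and 1 of 2, and choroid plexus 1, 1 and 1 of 2. EdgeR called none of these markers, against 0.154%, 0.898% and 1.02% of all tested genes. In bulk tissue, fewer cells of a type and less RNA per cell cannot be told apart, and the part of these markers in the members' levels was not tested.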

How the data were processed

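Poly(A) RNA of adult mouse cortex was measured in 12 libraries, grouped by the genotype in their titles. The authors deposited 1 table of estimated counts per gene symbol, without normalization, in whole numbers. Per the submitters' processing notes, the tools were StringTie 2.2.3, STAR 2.7.1a, Trim Galore 0.6.7, SAMtools 1.9 and FastQC, with builds mm10 and GRCm39, listed without roles. Neither the assignment of reads to genes nor the strand setting was given in the labels. Ubiquitous genes listed at 0 led to the deposited values being treated as estimates.

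There were 25 symbols on several rows (56 rows), which were left out. The test was edgeR 4.0.16 (R 4.3.3) with TMM factors, filterByExpr at a minimum count of 10 and a robust quasi-likelihood fit on genotype (9 residual degrees of freedom). CPM is per summed counts of tested genes times the TMM factor, and 0.5 CPM was added for log2 values of single libraries. No molecular identifiers are stated, so reads may include copies of 1 molecule. The scripts were tested on simulated data. DESeq2 1.42.0, limma-voom (limma 3.58.1), other scalings, filters and left-out libraries were alternatives. Comparisons with WT or HxD libraries 1 and 3 or 2 and 4 alone were chosen after seeing the data.

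All 10 members are named, with Nr3c1, Nr3c2, Hsd11b1 and Crh, the 4 most abundant tested genes of each other list, every list gene called, and the 5 genes most like the members' median profile. The members and lists were chosen with earlier results of these data known.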

Additional observations from a re-analysis of the deposited data

Results flagged for a closer look

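In KO, a single library lay apart from the other 3, relative to the range of the group, for 2 of the 10 members. Cdkn1a stood at 40.2 CPM in KO 1 and at 15.8 to 18.4 CPM in the other KO libraries. Zbtb16 stood at 59.8 CPM in KO 1 and at 48.7 to 50.2 CPM in the others, a narrow range with the highest 1.23-fold above the lowest. KO 1 was also the highest KO library for 7 of the 10 members. These were picked out by Dixon's ratio of the gap beside the end library to the whole range of the group. Its critical value is set so that chance passes it in about 1 in 20 groups, and 30 groups of 4 libraries were examined.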

How the results depend on the processing

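In HxD against WT, 0 of the 10 members were called under every alternative run. The members' median log2 fold change in KO against WT lay between 0.53 and 0.57 over other scalings, filters, tools and designs, and between 0.47 and 0.65 with 1 library left out. In KO against HxD, where 1 member was called, 0 were called without the filter on low counts, with only the 8 libraries compared, and with the replicate number as a block, 2 at an adjusted p below 0.1 and 4 by DESeq2, and 0 to 1 with 1 library left out (Cebpd, not Tsc22d3, without HxD 1). The replicate block gave Tsc22d3 a log2 fold change of 1.70 and an adjusted p of 0.0685 there. Same-numbered libraries did not deviate together (correlations of -0.07 to 0.08 over 12 pairs). The labels state no pairing, and correlations over all tested genes cannot exclude a weak one. The causes of these lost and gained calls were not tested. Small uncalled differences turned sign. In HxD against WT, Fkbp5 came to -0.44 by limma-voom, -0.17 with the replicate block and -0.17 with the library set as a term, and Zbtb16 to -0.082 by limma-voom and -0.037 with the block. With 1 library left out, HxD against WT ranged from -0.091 to 0.26 for Tsc22d3, -0.33 to 0.45 for Fkbp5 and -0.14 to 0.31 for Zbtb16. KO against HxD ranged from -0.32 to 0.45 for Fkbp5, -0.42 to 0.031 for Zbtb16, -0.77 to 0.010 for Cdkn1a and -0.012 to 0.19 for Errfi1. Over all genes, DESeq2 called 288 in KO against WT, 172 in HxD against WT and 396 in KO against HxD, where edgeR called 18, 105 and 119. In KO against WT, limma-voom and the fit on 8 libraries called 0, and the block 5. The shallowest library was KO 4, with 5791642 counts, and without it the members' median in KO against WT was 0.50.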
